A study of Mus musculus with 12 samples.

Results

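The developing mouse cortex was examined for 8 p53 target genes that act in cell cycle arrest, checkpoint control or growth inhibition: Cdkn1a, Btg2, Gtse1, Plk2, Plk3, Gadd45a, Zmat3 and Phlda3. They were chosen by name, and all 8 of 8 were found among the 54735 gene symbols measured in each embryo. RNA sequencing had been done on the dorsal telencephalon, or pallium, of 12 mouse embryos of strain C57/Bl6 at stage E13.5, 4 in each of 3 groups. Control embryos were Rnu11wt/flx::Trp53wt/wt::Emx1-Cre+, so they carried 1 floxed copy of Rnu11 and the Cre driver themselves. The conditional knockout (cKO) was Rnu11flx/flx::Trp53wt/wt::Emx1-Cre+, and the double knockout (dKO) was Rnu11flx/flx::Trp53flx/flx::Emx1-Cre+. Rnu11 encodes U11, a small nuclear RNA that recognises the minor introns, a rare class spliced by a machinery of its own, and Trp53 encodes p53. Emx1-Cre acts in pallial progenitors and the cells they produce, so microglia, vessels, blood and ventrally derived cells in the same dissection keep both genes. Embryos with Trp53 deleted and Rnu11 intact were not analysed here.

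p53 is a transcription factor that is stabilised when a cell senses DNA damage or other stress, binds a pair of short sequence repeats near its targets and raises their transcription. Its targets include genes that promote death and genes that act in cell cycle arrest, checkpoint control or growth inhibition. The genes described here were listed under the second kind. Among them are an inhibitor of cyclin-dependent kinases, stress-responsive kinases, a sensor of genotoxic stress, and proteins that restrain growth signals or messenger RNA. In the embryonic cortex, p53 signalling in neural progenitors is a known route to a small brain, and lengthened mitosis and DNA damage are known triggers of it.

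Levels are in TPM, a transcript abundance scaled to a fixed library sum, which are corrected for gene length within each library. Rnu11 stood at 640.5 ± 86.4 TPM (SD, n = 4) in control, 144 ± 20.4 TPM in cKO and 164 ± 26.3 TPM in dKO, which is 22.6% and 25.6% of control. Trp53 stood at 3.82 ± 1.73 TPM in control, 4.24 ± 0.404 TPM in cKO and 1.22 ± 0.252 TPM in dKO. Control embryo 1 held 6.37 TPM of Trp53 while the other controls held 2.63 to 3.37 TPM. The targeted genes thus matched the labels, with no overlap of the dKO group with either other group for Trp53. The pallial genes Emx1, Emx2 and Lhx2 were detected in every embryo, and Lhx2 ran from 21.4 to 35.9 TPM in control, 20.0 to 31.6 TPM in cKO and 20.5 to 26.4 TPM in dKO. Protein-coding genes took only 14.6% to 16.3% of the TPM in control libraries, 16.1% to 20.0% in cKO and 14.4% to 15.5% in dKO. The median change of the 11764 genes tested was 0.25 on the log2(TPM + 1) scale in cKO against control, so changes are also given after the protein-coding genes of each library were rescaled to a common sum, or after the median shift was subtracted. Summed microglial markers (Aif1, Cx3cr1, Csf1r, P2ry12, C1qa, C1qb and Trem2, none at 0 in any group) ran from 9.21 to 10.6 TPM in control, 34.2 to 48.6 TPM in cKO and 10.4 to 14.2 TPM in dKO, and 5 of the 6 tested were called higher in cKO as deposited, after median-shift centring and after rescaling over protein-coding or RefSeq genes. Cx3cr1 and Csf1r passed the filter only through the cKO embryos. Summed endothelial markers ran from 8.13 to 10.8 TPM in control, 16.3 to 21.6 TPM in cKO and 10.2 to 17.5 TPM in dKO. Summed neuronal markers ran from 237 to 261 TPM, 307 to 376 TPM and 162 to 249 TPM in the same order, with 5 of 9 called higher in cKO as deposited and 0 of 9 after centring or either rescaling. Summed markers of ventral telencephalon ran from 1.73 to 2.43 TPM, 3.43 to 5.29 TPM and 1.68 to 3.65 TPM in control, cKO and dKO. In the same order, radial glial markers ran from 253 to 280 TPM, 298 to 351 TPM and 274 to 280 TPM. Markers of intermediate progenitors ran from 34.9 to 48.6 TPM, 31.4 to 44.6 TPM and 32.8 to 40.4 TPM. As deposited, 2 of 8 radial glial genes were called higher in cKO and 1 lower, and 1 of 6 intermediate progenitor genes was called lower. The part of these cell types in the results below was not tested, and in bulk tissue a change in the number of cells of a type and a change in RNA per cell cannot be told apart.

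Promoter sequences are shown first for the 3 genes in which a p53 sequence element was found within the window searched. The windows ran from 250 bases before to 50 bases after each RefSeq transcription start (GRCm38.p6), and 7 of the 8 genes matched, with 9 windows. A 10-base p53 half-site was found by its consensus in 3 of the 9 windows, against 8.36% of all 32851 promoter windows. A full site of 20 bases, which is a pair of adjacent half-sites with both core motifs intact and at most 2 mismatches, was found in 2 of the 9 windows, against 0.158% of all windows. That second search was chosen after the sequences had been seen. The Cdkn1a stretch, on the plus strand at chr17:29090729-29090975, ends just before the upstream start site and is shown because Cdkn1a had one of the largest changes below. Its capitals mark a half-site and, 12 bases further on, a 20-base full site with 1 mismatch at chr17:29090928-29090947.
Cdkn1a: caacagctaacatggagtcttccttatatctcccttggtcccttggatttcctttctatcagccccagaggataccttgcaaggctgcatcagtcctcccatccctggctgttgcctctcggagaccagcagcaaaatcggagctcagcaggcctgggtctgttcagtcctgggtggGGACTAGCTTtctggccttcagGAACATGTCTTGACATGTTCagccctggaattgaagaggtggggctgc
The matching stretch of Gtse1, on the plus strand at chr15:85859457-85859706, held no p53 element, and its capitals mark a CCAAT box on each strand, the element that factor NF-Y binds in many cell cycle promoters. A 20-base p53 site with 1 mismatch lay further in, at chr15:85859945-85859964, across the second annotated start of Gtse1, and is the run of capitals in the second Gtse1 line. The Gadd45a line shows a single half-site in capitals, with 10 bases on each side, on the minus strand at chr6:67037428-67037457.
Gtse1 promoter: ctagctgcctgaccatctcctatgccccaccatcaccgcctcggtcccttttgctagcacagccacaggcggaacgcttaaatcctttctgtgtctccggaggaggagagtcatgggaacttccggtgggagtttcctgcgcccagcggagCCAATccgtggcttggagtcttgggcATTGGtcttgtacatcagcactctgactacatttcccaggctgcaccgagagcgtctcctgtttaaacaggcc
Gtse1 site: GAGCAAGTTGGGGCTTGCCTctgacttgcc
Gadd45a site: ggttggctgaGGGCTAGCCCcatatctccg
CCAAT, searched on both strands, was found in 4 of the 9 windows (Btg2, Gadd45a and both windows of Gtse1), against 37.4% of all windows. The Gtse1 windows overlap, and the only CCAAT of the second, at chr15:85859705-85859709, is also counted in the first. TTTGAA, the cell cycle homology region of many mitotic promoters, was found in 0 of 9 on either strand, against 17.9% of all windows. A sequence match is a description of these letters, and elements outside the windows were not searched.

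Of the 8 genes, 5 (Cdkn1a, Phlda3, Plk2, Zmat3 and Gtse1) rose in cKO against control and were lower in dKO than in cKO under each scaling of the values, with ratios of cKO to control between 2.37 and 6.89. For these 5, dKO stood between 71.3% and 119% of control and was not called different from it. Gadd45a was higher than in control in all 4 cKO and all 4 dKO embryos. In cKO against control, Btg2 and Plk3 changed about as much as the median gene did on the log2(TPM + 1) scale. With 0.1 in place of 1 added to the TPM, Plk3 changed by 0.47 (limma adjusted p = 0.134) and Btg2 by 0.31. The median gene then changed by 0.30. With limma on log2(TPM + 1), 7 of the 8 genes passed an adjusted p of 0.05 as higher in cKO than in control, 0 passed in dKO against control, and 5 passed as lower in dKO than in cKO. The background was high: 34.3% of all 11764 genes tested were called higher in cKO than in control, and 38.8% were called lower in dKO than in cKO. All cKO embryos lay above all controls for 7 of the 8 genes and for 32.7% of all genes, and all dKO embryos lay below all cKO embryos for 5 of the 8 and for 32.8% of all genes. For dKO against control, 5.19% of genes were called in either direction at the adjusted threshold, beside 0 of the 8. At an unadjusted limma p under 0.05, 1 of the 8 genes, Gadd45a, passed. The share of all genes at the unadjusted threshold is not given here, so that count has no background beside it. After median-shift centring the background called higher in cKO fell to 3.72% and 5 of the 8 genes were still called. After protein-coding rescaling, 11.3% of genes and the same number of the 8, 5, were called higher. The same 2 scalings left 5 of the 8 genes called lower in dKO than in cKO, beside 3.83% and 8.28% of all genes. The median change of the 8 genes in cKO against control was 1.02, beside 0.25 for all genes tested, and 0.77 beside -0.00 after centring. All 8 genes passed the filter of a mean of at least 1 TPM over the 12 embryos, but Cdkn1a and Phlda3 did so only through the cKO embryos, since their means over the other 8 embryos were 0.511 and 0.463 TPM. The summed microglial markers, too, were higher in every cKO embryo than in any other embryo. Both groups of mutants were compared with the same 4 control embryos.

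**Figure D1:**
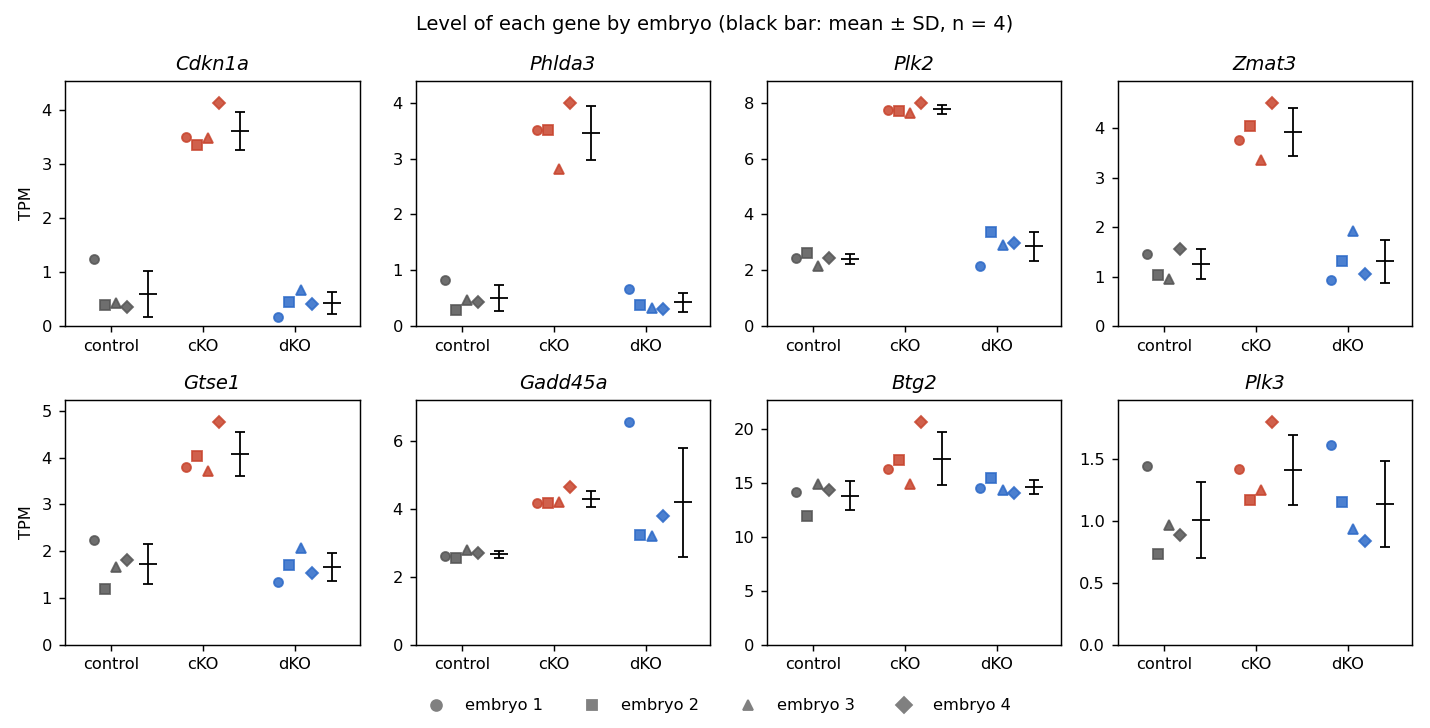
Level of each gene in TPM (vertical axis, starting at 0) in control, cKO and dKO embryos (horizontal axis). Each symbol is 1 embryo and black bars are the mean ± SD of 4. For Cdkn1a, Phlda3, Plk2, Zmat3 and Gtse1 all cKO embryos lie above every control and dKO embryo, whereas for Gadd45a the dKO embryos, led by embryo 1 at 6.58 TPM, also lie above every control.

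Cdkn1a encodes p21, which binds and blocks cyclin-dependent kinases and the replication clamp PCNA and is the best known effector of p53-dependent arrest. The gene is on chromosome 17 (GRCm38, chr17:29090976-29100727, plus strand). Control embryos 1 to 4 held 1.24, 0.380, 0.427 and 0.345 TPM, cKO embryos held 3.51, 3.35, 3.47 and 4.12 TPM, and dKO embryos held 0.169, 0.450, 0.673 and 0.410 TPM. The lowest cKO embryo was thus above the highest embryo of either other group, control embryo 1, which also held the most Trp53 of its group, stood above the other controls, and control and dKO overlapped. The means were 0.597 ± 0.427, 3.61 ± 0.346 and 0.425 ± 0.206 TPM (SD, n = 4), a ratio of 6.06 between cKO and control. On the log2(TPM + 1) scale cKO exceeded control by 1.56 ± 0.16 (SE; limma adjusted p = 7.9e-05), and dKO differed from cKO by -1.70 (limma adjusted p = 5.28e-05). From the highest change down, Cdkn1a ranked 38 of the 11764 genes tested in cKO against control. Between dKO and control the difference was -0.14, with a 95% interval from -0.49 to 0.21 (limma adjusted p = 0.695). A gene model on the opposite strand, AC167363.2, lies wholly inside Cdkn1a over 1046 bases. It stood at 0.0237 ± 0.0190 TPM in control, 0.991 ± 0.240 TPM in cKO and 0.0337 ± 0.0281 TPM in dKO. Whether the deposited counting used strand is not given in the sources used here, so reads of this pair cannot be told apart.

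The list set beside Cdkn1a held 13 partners and downstream proteins of p21: the D-, E- and A-type cyclins, their kinases, PCNA, and the retinoblastoma proteins that hold back entry into S phase. In cKO against control 5 of the 13 were called higher, close to the 34.3% of all genes tested, and 1 was called lower. Ccnd1, the D-type cyclin that starts the path into S phase, rose from 11.6 ± 2.11 to 18.8 ± 3.88 TPM (log2 change 0.65, limma adjusted p = 0.0144). Rb1, the retinoblastoma gene, rose from 8.87 ± 0.364 to 14.3 ± 2.06 TPM (0.62, limma adjusted p = 0.00186), and its relative Rbl2 changed by 0.53. Cdk6 and Ccnd3, a kinase and a cyclin that work together in G1, changed by 0.55 and 0.46. Pcna, the clamp that p21 binds, fell from 156 ± 10.3 to 121 ± 18.0 TPM (-0.37, limma adjusted p = 0.036). In dKO, Pcna and Ccnd1 stood at 121 ± 15.8 and 18.1 ± 3.63 TPM, differences from control of -0.37 (limma adjusted p = 0.105) and 0.60 (limma adjusted p = 0.0637). After centring the counts turned to 1 higher and 4 lower, and after protein-coding rescaling they were 4 higher and 2 lower, so the direction of this list depends on the scaling. In dKO against control, 1 of the 13 was called as deposited, Ccne2, an E-type cyclin, which fell from 6.91 ± 0.399 to 3.73 ± 0.491 TPM (-0.74, limma adjusted p = 0.00621). After centring, and likewise after protein-coding rescaling, 1 of the 13 was called higher and 3 lower in that comparison. After RefSeq rescaling 1 was called higher and 4 lower. In dKO against cKO, 5 of the 13 were called lower, Rb1 among them at -0.91, and none higher, beside 38.8% of all genes called lower. After centring or either rescaling 2 of the 13 were.

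Plk2 and Plk3 are polo-like kinases that respond to stress and serum, unlike Plk1, the main mitotic kinase of the family. Plk2 also acts in centriole duplication and in neurons, where it weakens overactive synapses. Its locus is on chromosome 13 (chr13:110395046-110400844, plus strand). Its levels were 2.44, 2.60, 2.14 and 2.44 TPM in control embryos 1 to 4, 7.76, 7.71, 7.63 and 7.99 TPM in cKO, and 2.15, 3.36, 2.92 and 2.98 TPM in dKO. The 4 cKO embryos were close to each other and every one was above all other embryos, while control and dKO overlapped. Means were 2.41 ± 0.191, 7.77 ± 0.153 and 2.85 ± 0.509 TPM, which is 3.23 times control in cKO and 119% of control in dKO. The cKO change was 1.37 ± 0.09 (SE; limma adjusted p = 2.96e-06), the lowest adjusted p of the 8 genes in that comparison. Plk2 differed between dKO and control by 0.17, with a 95% interval from -0.03 to 0.37 (limma adjusted p = 0.342), and dKO differed from cKO by -1.20 (limma adjusted p = 9.26e-06).

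Plk3 lies on chromosome 4 (chr4:117128655-117133963, minus strand) and is a stress-responsive kinase of the same family. Its levels were 1.44, 0.729, 0.966 and 0.886 TPM in control embryos 1 to 4, 1.42, 1.16, 1.25 and 1.80 TPM in cKO, and 1.61, 1.15, 0.934 and 0.837 TPM in dKO. All 3 groups overlapped, with embryo 1 the highest of both the control and dKO groups. The cKO change was 0.27 (95% interval -0.04 to 0.57, limma adjusted p = 0.143), and dKO differed from control by 0.09 (limma adjusted p = 0.783). Without control embryo 1 and dKO embryo 1, a check added after the data had been seen, the cKO change was 0.37 (limma adjusted p = 0.0294). Plk1 changed by 0.18 (limma adjusted p = 0.44) and Plk4, which starts centriole duplication, by 0.05 (limma adjusted p = 0.707) in cKO against control. Plk2 was thus the 1 polo-like kinase of the 4 tested that passed the test, although the difference between the family members was not tested.

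Gadd45a encodes a small stress-induced protein that binds PCNA, p21 and the mitotic kinase Cdk1 and feeds stress kinase signalling, and it is also induced by p53-independent stress. It lies on chromosome 6 (chr6:67035096-67037457, minus strand). Levels were 2.62, 2.54, 2.79 and 2.69 TPM in control embryos 1 to 4, 4.19, 4.19, 4.21 and 4.67 TPM in cKO, and 6.58, 3.23, 3.20 and 3.81 TPM in dKO. Every cKO and every dKO embryo was above every control embryo, and the cKO and dKO groups overlapped because dKO embryo 1 was the highest of all while the other dKO embryos were below every cKO embryo. Means were 2.66 ± 0.107, 4.31 ± 0.236 and 4.20 ± 1.61 TPM, so dKO stood at 158% of control. Without dKO embryo 1 the dKO mean was 3.41 ± 0.346 TPM (SD, n = 3), or 128% of control. The cKO change was 0.54 ± 0.15 (SE; limma adjusted p = 0.0197), and it was 0.41 after protein-coding rescaling (limma adjusted p = 0.0794) and 0.29 after centring (limma adjusted p = 0.333). Without cKO embryo 4 it was 0.51 (limma adjusted p = 0.0569). The change in dKO against control was 0.46 with a 95% interval from 0.13 to 0.79 (limma adjusted p = 0.105), and 0.52 after protein-coding rescaling (limma adjusted p = 0.045). Without dKO embryo 1 it was 0.27 (limma adjusted p = 0.071). Groups did not overlap, with dKO the higher, for 5.14% of all genes tested, and Gadd45a ranked 394 of 11764 from the highest change in that comparison. Between dKO and cKO the change was -0.07 (95% interval -0.41 to 0.26, limma adjusted p = 0.705), and without dKO embryo 1 it was -0.27 (limma adjusted p = 0.0209). Of its relatives, Gadd45g changed by 0.02 in cKO against control (limma adjusted p = 0.95), and Gadd45b, below the filter, changed by 0.34 in the fit without the filter (limma adjusted p = 0.023). A transcript on the opposite strand, E230016M11Rik, overlaps Gadd45a by 859 bases and stood at 0.174, 0.217 and 0.210 TPM on average in control, cKO and dKO.

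**Figure D2:**
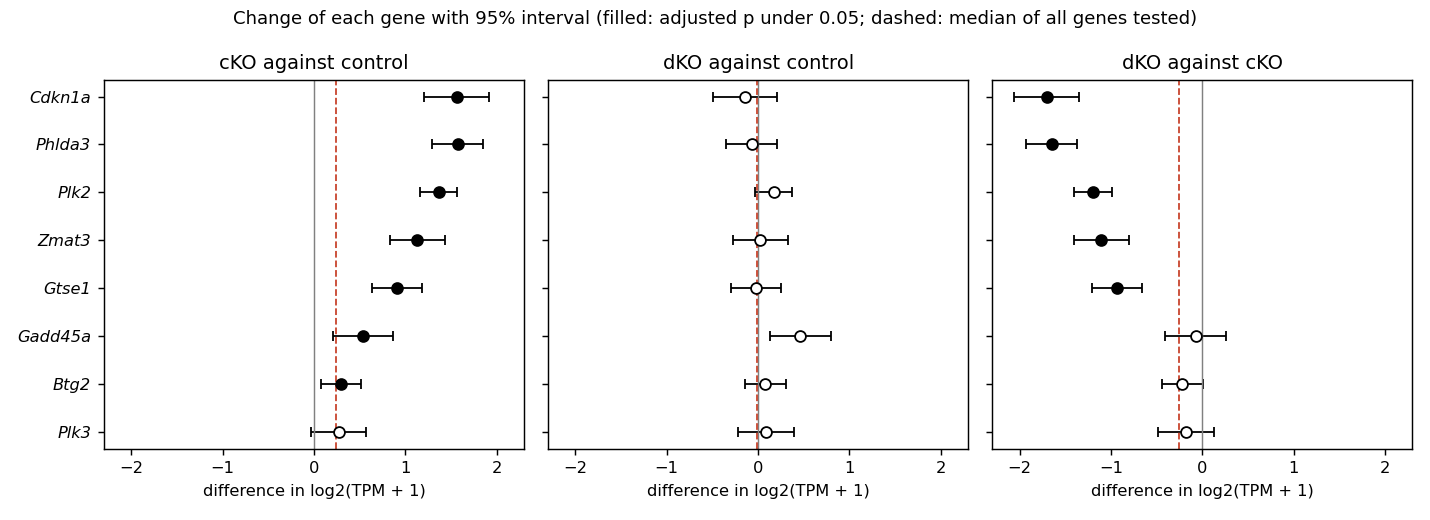
Difference in log2(TPM + 1) for each gene (rows) in cKO against control, dKO against control and dKO against cKO (panels), with 95% intervals from limma. Filled points passed an adjusted p of 0.05, and the dashed line is the median of all genes tested, at 0.25, -0.01 and -0.26. In cKO against control Btg2 and Plk3 lie beside the dashed line and the first 5 genes lie well to its right.

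Phlda3 encodes a small protein with a lipid-binding domain that competes with the kinase Akt for the membrane and so restrains growth and survival signalling. It lies on chromosome 1 (chr1:135766119-135769136, plus strand). Control embryos 1 to 4 held 0.823, 0.293, 0.462 and 0.430 TPM, cKO embryos held 3.51, 3.51, 2.82 and 3.99 TPM, and dKO embryos held 0.672, 0.385, 0.328 and 0.312 TPM. Every cKO embryo was above all others, and control and dKO overlapped. Means were 0.502 ± 0.226, 3.46 ± 0.481 and 0.425 ± 0.168 TPM, a ratio of 6.89 between cKO and control. The cKO change was 1.58 ± 0.13 (SE; limma adjusted p = 1.14e-05), rank 37 of 11764 genes and within the SE of the change of Cdkn1a. In dKO the level was 84.6% of control, a change of -0.07 (95% interval -0.35 to 0.21, limma adjusted p = 0.815), and dKO differed from cKO by -1.65 (limma adjusted p = 9.26e-06).

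Zmat3 encodes a zinc finger protein that binds RNA, affects splicing and messenger RNA stability, and slows proliferation downstream of p53. Zmat3 is on chromosome 3 (chr3:32334792-32366014, minus strand). Levels were 1.46, 1.03, 0.961 and 1.55 TPM in control embryos 1 to 4, 3.77, 4.06, 3.35 and 4.51 TPM in cKO, and 0.935, 1.32, 1.92 and 1.05 TPM in dKO. Again no cKO embryo overlapped the other groups, which overlapped each other. Means were 1.25 ± 0.301, 3.92 ± 0.486 and 1.31 ± 0.440 TPM, with cKO at 3.13 times control and dKO at 104% of control. The cKO change was 1.13 ± 0.14 (SE; limma adjusted p = 0.000258), dKO differed from control by 0.03 (95% interval -0.28 to 0.33, limma adjusted p = 0.945), and dKO differed from cKO by -1.11 (limma adjusted p = 0.000289).

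Btg2 encodes an antiproliferative protein that recruits the deadenylase complex which shortens messenger RNA tails, and in the embryonic cortex it marks progenitors that are about to make neurons. It lies on chromosome 1 (chr1:134075170-134079120, minus strand) and was the most abundant of the 8 genes. Levels were 14.1, 11.9, 14.9 and 14.3 TPM in control embryos 1 to 4, 16.3, 17.1, 14.9 and 20.6 TPM in cKO, and 14.5, 15.5, 14.3 and 14.1 TPM in dKO. The lowest cKO embryo was only just above the highest control embryo, and the dKO embryos overlapped both groups. Means were 13.8 ± 1.32, 17.2 ± 2.44 and 14.6 ± 0.614 TPM. The cKO change of 0.30 ± 0.10 (SE; limma adjusted p = 0.0391) ranked 4462 of 11764, and it was 0.15 after protein-coding rescaling (limma adjusted p = 0.134) and 0.05 after centring (limma adjusted p = 0.742). It also lost its call without control embryo 1, 2 or 4 or without cKO embryo 2 or 4, each left out in turn (limma adjusted p from 0.0545 to 0.113). The dKO change against control was 0.08 (95% interval -0.14 to 0.30, limma adjusted p = 0.728). Of the related antiproliferative genes, Tob1 rose from 2.57 ± 0.637 to 4.04 ± 0.424 TPM in cKO (0.51, limma adjusted p = 0.0217). Btg1 fell from 9.23 ± 1.44 TPM in control to 6.10 ± 1.06 TPM in dKO (-0.53, limma adjusted p = 0.0492). Across the 18 family relatives of the 8 genes, 11 passed the filter, and Tob1 was the 1 called in cKO against control. Tob1 was not called after centring or after protein-coding rescaling. The p21 relatives Cdkn1b and Cdkn1c, which encode p27 and p57, changed by 0.05 (limma adjusted p = 0.78) and 0.26 (limma adjusted p = 0.211).

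Gtse1 encodes a microtubule-associated protein made in S and G2 phase that binds p53 and carries it out of the nucleus, so it is both a p53 target and a cell cycle gene. The locus of Gtse1 is on chromosome 15 (chr15:85859745-85876573, plus strand). Levels were 2.23, 1.18, 1.66 and 1.80 TPM in control embryos 1 to 4, 3.81, 4.02, 3.70 and 4.76 TPM in cKO, and 1.34, 1.71, 2.05 and 1.53 TPM in dKO. All cKO embryos were above all others, and the dKO values lay inside the control range. Means were 1.72 ± 0.433, 4.07 ± 0.479 and 1.66 ± 0.304 TPM, a ratio of 2.37 between cKO and control. The cKO change was 0.91 ± 0.12 (SE; limma adjusted p = 0.000543), dKO differed from control by -0.02 (95% interval -0.29 to 0.25, limma adjusted p = 0.942), and dKO differed from cKO by -0.94 (limma adjusted p = 0.00043). Gtse1 is expressed together with the genes of G2 and M phase in cycling cells, so 23 of those were set beside it. None of the 23 was called in cKO against control, 1 (Birc5) had an unadjusted p under 0.05, and their median change was -0.01, beside 0.91 for Gtse1. The changes furthest from 0 were 0.23 for Birc5, a survivin gene, 0.17 for Kif23, a motor of the mitotic midzone, and -0.14 for both Top2a, the mitotic topoisomerase, and Hmmr, a spindle protein. After centring 2 of the 23 were called lower and after protein-coding rescaling 1 was, beside 2.96% and 1.74% of all genes. In dKO against control, Hmmr was called as deposited, falling from 20.3 ± 2.11 to 14.5 ± 1.26 TPM (-0.46, limma adjusted p = 0.0298). After centring 4 of the 23 were called lower, after protein-coding rescaling 3 and after RefSeq rescaling 4. Of all genes, 3.4% were called lower as deposited, and 4.69%, 3.74% and 5.71% under these 3 scalings. At an unadjusted limma p under 0.05, 13 of the 23 passed, all of them lower. The share of all genes at that unadjusted threshold is not given here. In dKO against cKO 7 of the 23 were called lower, beside 38.8% of all genes. After centring or protein-coding rescaling 0 of the 23 were, beside 3.83% and 8.28% of all genes.

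**Figure D3:**
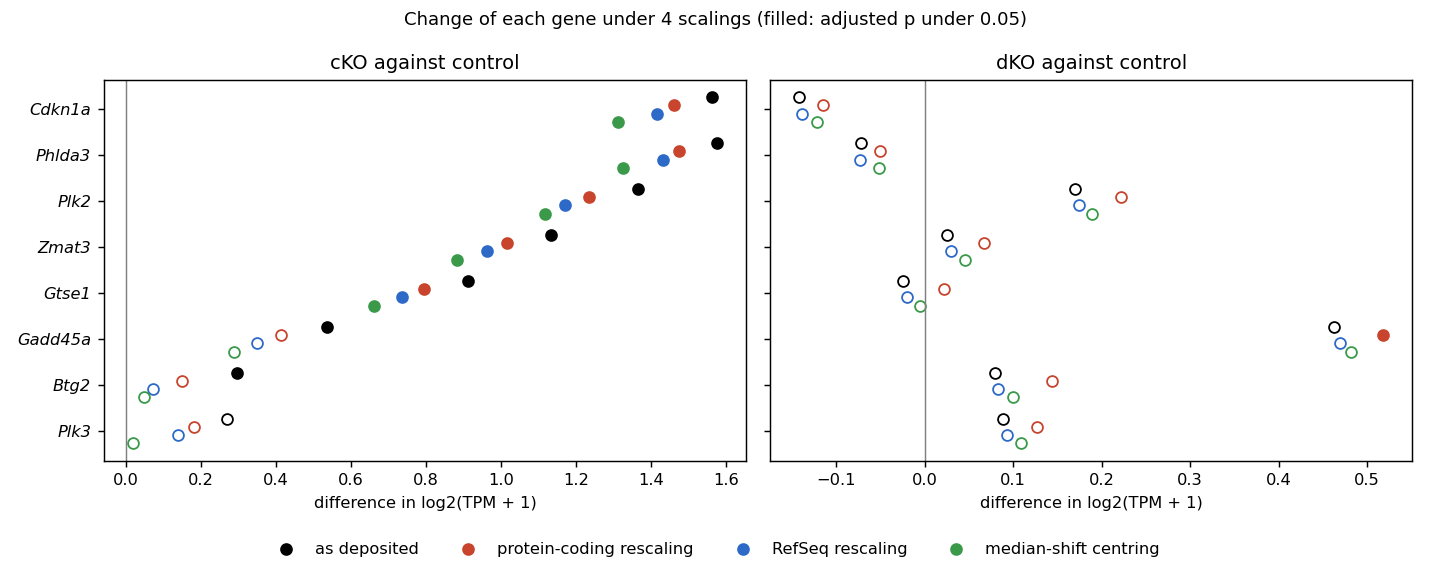
Difference in log2(TPM + 1) for each gene (rows) in cKO against control and dKO against control (panels, with different horizontal ranges) under 4 scalings (colours). Filled points passed an adjusted p of 0.05. The first 5 genes are filled in the cKO panel under each scaling, while Gadd45a and Btg2 are filled there only for the values as deposited, and Gadd45a is filled in the dKO panel only after protein-coding rescaling.

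Scaling moved the size of these changes but not the order of the first 5 genes against the other 3. For Cdkn1a the cKO change of 1.56 became 1.46 with rescaled protein-coding genes and 1.31 with centring, and that of Gtse1 was 0.91, 0.79 and 0.66. Each of Cdkn1a, Phlda3, Plk2, Zmat3 and Gtse1 was called in cKO against control in 24 of 24 settings, and likewise in dKO against cKO. Btg2 was called in 11 of 25 settings and Gadd45a in 18 of 24 for cKO against control. Within the cKO group, embryo 4 held the highest level of all 8 genes, and its library also had the highest protein-coding share, at 20.0%. Within the control group, embryo 1 was highest for 4 of the 8 (Cdkn1a, Gtse1, Plk3 and Phlda3), and embryo 2 lowest for 5. Without control embryo 1, the cKO change was 1.73 for Cdkn1a and 1.67 for Phlda3, beside 1.56 and 1.58 with it.

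By level in control, the genes ran from Btg2 at 13.8 TPM through Gadd45a at 2.66, Plk2 at 2.41, Gtse1 at 1.72, Zmat3 at 1.25, Plk3 at 1.00 and Cdkn1a at 0.597 to Phlda3 at 0.502 TPM. Btg2 stood clear of the rest, above 79.4% of the genes tested, and from Gadd45a down each neighbouring pair in that order overlapped across the 4 control embryos. In cKO the order began with Btg2 at 17.2 TPM and Plk2 at 7.77 TPM, and Cdkn1a and Phlda3 had reached the levels of Zmat3, Gtse1 and Gadd45a, between 3.46 and 4.31 TPM. Plk3 was lowest in cKO, at 1.41 TPM. In dKO the order was again close to that of control, with Gadd45a at 4.20 TPM and Cdkn1a and Phlda3 lowest, both at 0.425 TPM.

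Over the 12 embryos, each gene was compared with the mean standardised profile of the other 7. Pearson's r was 0.961 for Phlda3, 0.936 for Gtse1, 0.909 for both Cdkn1a and Zmat3, 0.894 for Plk2, 0.812 for Btg2, 0.659 for Plk3 and 0.484 for Gadd45a. Gadd45a was thus least like the others, its dKO values being above every control value. Among the genes outside the 8 with the profile most like their mean were Tpm1 (r = 0.980), Susd6 (0.974), Sesn2 (0.973) and Snapc4 (0.970). Tpm1, an actin-binding tropomyosin, stood at 23.8 ± 2.33 TPM in control, 42.5 ± 4.29 TPM in cKO and 27.5 ± 0.988 TPM in dKO. These values describe a likeness that includes the group differences and the shared scaling of the libraries.

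Another 12 p53 targets with a part in arrest or growth control were set beside the 8 genes, and 9 passed the filter. In cKO against control 5 of the 9 were called higher and none lower, with a median change of 0.48. After centring 3 were still called and after protein-coding rescaling 4 were. Of all genes tested, 34.3% were called higher as deposited, and 3.72% and 11.3% under these 2 scalings. Ccng1, cyclin G1, which regulates p53 through a phosphatase, rose from 8.28 ± 0.638 TPM in control to 47.6 ± 4.83 TPM in cKO and stood at 6.95 ± 0.748 TPM in dKO. Its cKO change of 2.39 (limma adjusted p = 2.26e-08) was larger than that of any of the 8 genes. Sesn2, a sestrin that restrains the growth kinase mTORC1, went from 0.505 ± 0.220 to 4.01 ± 0.937 TPM and stood at 0.548 ± 0.175 TPM in dKO (cKO change 1.73, limma adjusted p = 1.58e-05), and it passed the filter only through the cKO embryos. Trp53inp1, a p53-induced nuclear protein, went from 7.18 ± 0.773 to 15.4 ± 1.22 TPM (1.00, limma adjusted p = 0.000174). In dKO it stood at 4.73 ± 0.855 TPM, a difference of -0.52 from control (limma adjusted p = 0.0222). Ddit4, a stress-induced brake on mTORC1, and Sesn1, another sestrin, changed by 0.63 and 0.33 in cKO. E2f7, a repressor of S phase genes, was called in dKO against control, at -0.40 (limma adjusted p = 0.0369). In dKO against cKO 8 of the 9 were called lower as deposited, 3 after centring and 5 after protein-coding rescaling. In the same order, 38.8%, 3.83% and 8.28% of all genes were called lower.

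The 3 negative regulators of p53 that are also its targets rose in cKO as deposited. Mdm2, the ubiquitin ligase that removes p53, went from 14.8 ± 0.443 TPM in control to 27.9 ± 1.52 TPM in cKO and stood at 12.4 ± 2.03 TPM in dKO (cKO change 0.87, limma adjusted p = 0.000147). Mdm4, its partner, changed by 0.53 and Ppm1d, a phosphatase of the p53 pathway, by 0.31. After centring 1 of the 3 was still called and after protein-coding rescaling 2 were, beside 3.72% and 11.3% of all genes called higher. None of the 3 was called in dKO against control with limma, and 2 of them, Mdm2 at -0.24 and Mdm4 at -0.34, had an unadjusted p under 0.05.

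**Figure D4:**
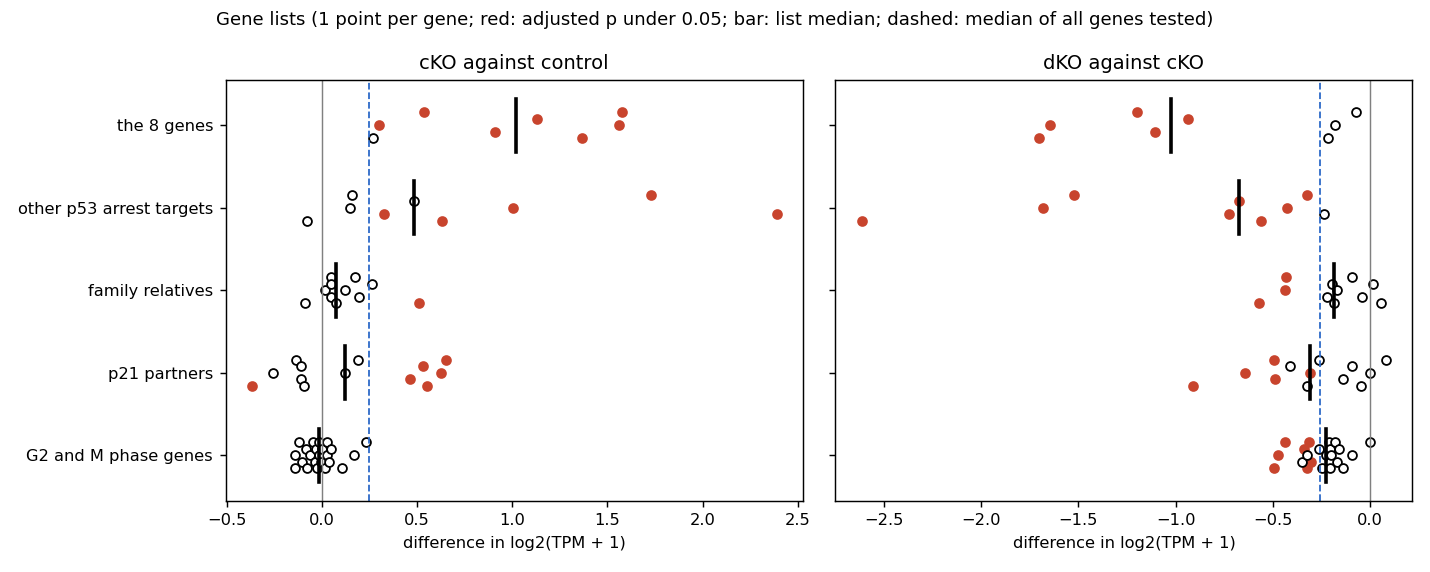
Difference in log2(TPM + 1) in cKO against control and dKO against cKO (panels) for the 8 genes, 9 other p53 arrest targets, 11 family relatives, 13 p21 partners and 23 G2 and M phase genes that passed the filter. Each point is 1 gene, red where the adjusted p was under 0.05, thick bars are list medians and the dashed line is the median of all genes tested, at 0.25 and -0.26. The median of the 8 genes in cKO against control is 1.02, while the medians of the family relatives and of the G2 and M phase genes are 0.07 and -0.01.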

How the data were processed

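Stranded total RNA libraries from the dissected dorsal telencephalon of 12 embryos had been sequenced. The deposited values are TPM per gene symbol, 1 table per embryo with no header. The unit is inferred, since the fractional numbers of every table add up to 1000000. The submitters' processing notes name HISAT2 and the mm10 genome, and the quantification tool, the annotation, the use of strand in counting and how reads shared between genes were treated are not given in the sources used here. Depth cannot be read from TPM and is unknown for each library, which limits what can be said of low genes, and no counting interval is given. Groups came from the genotype labels. The p-values rest on the spread between embryos within groups, estimated over all 3 groups together and moderated across genes by limma. An embryo of the third group can thus move a p-value. For Gadd45a in cKO against control the limma adjusted p was 0.0197, and 0.000545 without dKO embryo 1.

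For the tests, log2(TPM + 1) was fitted in limma 3.58.1 (R 4.3.3; lmFit, then eBayes with its trend option). The 11764 genes whose mean over the 12 embryos reached 1 TPM were tested. The 3 groups shared 1 fit, p-values were Benjamini-Hochberg adjusted over all genes tested in each comparison, and genes with an adjusted p under 0.05 were called. Differences are given in log2(TPM + 1) units, in which changes of low genes come out too small. On data simulated for cKO against control, with 11764 genes of which 200 were changed by 1 on the log2 scale, 91.5% of the changed genes were recovered, with 9 false calls. The simulated libraries had independent noise and no shift common to all genes. The simulation therefore cannot tell how many calls in the real data come from the shift of the median gene.

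The 8 genes and the lists set beside them were chosen with earlier results of these data known. Named genes are these 8, Rnu11 and Trp53, called or related genes of the lists of p53 regulators, p53 arrest targets, family relatives and p21 partners, up to 4 examples each of the G2 and M phase and immediate early lists, and the 5 genes most like the mean profile of the 8 by Pearson correlation. One of these 5 is not reported here. Other genes were named after their values had been seen. Alternatives were a pseudocount of 0.1, no filter, a minimum mean of 5 TPM, subtraction of the median shift, rescaling of protein-coding genes to a common sum (GENCODE M21), quantile normalization, only the 2 groups compared, a replicate block, sample weights and leaving out each embryo. Rescaling over RefSeq genes, protein-coding rescaling with a pseudocount of 0.1, and leaving out control embryo 1 and dKO embryo 1 together were added after seeing the data. Gene positions are from GENCODE M21 (GRCm38) and promoter sequences from RefSeq (GRCm38.p6).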

Additional observations from a re-analysis of the deposited data

Results flagged for a closer look

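Embryos that stood apart were sought in 90 groups of 4 embryos, for the 8 genes, the targeted genes and some of the other named genes. Named genes such as Mdm2, Mdm4, Ccne2, E2f7, Hmmr and Birc5 were not searched in this way. The measure was the distance of the highest or lowest embryo to the next one, as a share of the distance between the highest and lowest. In 5 groups it exceeded Dixon's 95% critical value for 4 samples, where about 4.5 are expected by chance. Cdkn1a in control was one, with embryo 1 high and a share of 0.907. Gadd45a in cKO was another, with embryo 4 high at 4.67 TPM and a share of 0.964, although the other 3 cKO embryos lay within 4.19 to 4.21 TPM. For Trp53inp1 in dKO, embryo 1 was low, with a share of 0.843. For Btg1 in control, embryo 1 was high, with a share of 0.91. For Junb in dKO, embryo 2 was low, with a share of 0.932. The high dKO embryo 1 of Gadd45a, at 6.58 TPM, had a share of 0.819, just under the critical value.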

How the results depend on the processing

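Cdkn1a, Phlda3, Plk2, Zmat3 and Gtse1 kept their direction and their call in cKO against control and in dKO against cKO under all 23 alternatives in which they were tested, with adjusted p values up to 0.00377. Under a filter of 5 TPM only Btg2 of the 8 genes was tested, and 1 gene was called in cKO against control and 0 in dKO against cKO. In dKO against control, 1 gene, Gadd45a, was called after protein-coding rescaling, 1 with sample weights and 1 after rescaling with a pseudocount of 0.1. With each embryo left out in turn, 5 to 7, 0 to 0 and 5 to 6 of the 8 genes were called in cKO against control, dKO against control and dKO against cKO. Over all genes the calls then ran from 2468 to 4353, 333 to 705 and 3082 to 4851, the lowest without cKO embryo 2, control embryo 4 and cKO embryo 2. Calls over all genes were 4163, 610 and 4636 as deposited, 786, 992 and 698 after centring, 1539, 1080 and 1139 after protein-coding rescaling, 810, 1029 and 798 after quantile normalization, 865, 1071 and 1012 after RefSeq rescaling, 1527, 1137 and 1107 after protein-coding rescaling with a pseudocount of 0.1, and 1900, 294 and 2220 with a mean of at least 5 TPM. With sample weights, 1579 genes were called in dKO against control. The cause of these shifts was not tested. Differences that changed sign were all uncalled. For dKO against control, Cdkn1a turned to 0.022 with sample weights and to 0.12 without control embryo 1 and dKO embryo 1, and ran from -0.22 to 0.031 with 1 embryo left out (highest without control embryo 1). Gtse1 turned to 0.022 after protein-coding rescaling, 0.033 with the pseudocount of 0.1 added and 0.12 without the same pair, and ran from -0.13 to 0.063 with 1 embryo left out (positive without control embryo 1 or dKO embryo 1). Plk3 ran from -0.013 (without dKO embryo 1) to 0.19. Zmat3 ran from -0.094 to 0.10, negative without control embryo 2, control embryo 3 or dKO embryo 3. Phlda3 turned to 0.043 after quantile normalization and ran from -0.15 to 0.026, positive without control embryo 1. For dKO against cKO, centring, quantile normalization and RefSeq rescaling gave 0.051, 0.043 and 0.010 for Btg2 and 0.19, 0.20 and 0.12 for Gadd45a. Gadd45a was also at 0.10 after protein-coding rescaling and 0.12 with the pseudocount of 0.1 added, and ran from -0.27 (without dKO embryo 1) to 0.014, positive without dKO embryo 2 or 3. Against control, Gadd45a in dKO was at 0.27 without dKO embryo 1, beside 0.46 with it. Plk3 was at 0.089 in dKO against cKO after centring and 0.10 after quantile normalization. Btg2 in dKO against cKO was called without cKO embryo 3, at -0.28 (limma adjusted p = 0.0466). With the replicate number as a block, 6, 0 and 5 of the 8 genes were called, and 2979, 409 and 3608 genes in all. Correlations of the deviations of same-numbered embryos ran from -0.095 to 0.075, so the numbers were not taken as a pairing. Levels under about 1 TPM carry the least precision, and their depth is unknown.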

Other observations

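Promoters with a pair of adjacent p53 half-sites were also looked up beyond the 8 genes. The 52 such windows belong to 51 genes, of which 16 passed the filter on low values, Cdkn1a and Gtse1 among them. In cKO against control 12 of the 16 were called higher and none lower, with a median change of 0.39 beside 0.25 for all genes tested. In dKO against cKO 13 of the 16 were called lower, with a median of -0.48 beside -0.26. Zfp365, a gene with a known part in genome stability, stood at 0.316 TPM in control, 2.78 TPM in cKO and 0.523 TPM in dKO on average (cKO change 1.52, limma adjusted p = 1.49e-06), and, like Cdkn1a, it passed the filter only through the cKO embryos. Rps27l, a ribosomal protein relative known as a p53 target, stood at 47.6, 68.8 and 45.2 TPM (0.52, limma adjusted p = 0.00486). Ckap2, a spindle protein, stood at 22.5, 34.3 and 17.2 TPM (0.58, limma adjusted p = 0.00194). Bmp4, a secreted growth factor, was the 1 of the 16 called in dKO against control, higher by 0.87 (limma adjusted p = 0.00232). Bmp4 was also called higher in cKO than in control, by 0.73 (limma adjusted p = 0.00217). Its dKO level differed from cKO by 0.14 (limma adjusted p = 0.37). This group of promoters was chosen after the sequences had been seen. Of all genes, 34.3% were called higher in cKO than in control and 38.8% lower in dKO than in cKO. The calls of the 16 genes are for the values as deposited only. How many would remain after centring or rescaling is not given here.

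Some low genes of the lists were left out by the filter and were seen only in the fit without it. Ptprv, a phosphatase gene known as an arrest target of p53, stood at 0.0872 TPM in control, 0.751 TPM in cKO and 0.0745 TPM in dKO (cKO change 0.67, limma adjusted p = 0.00821). Fos, an immediate early gene, stood at 0.0634, 0.431 and 0.0665 TPM (0.43, limma adjusted p = 0.00133), and Junb, a partner of Fos, at 0.576, 1.08 and 0.535 TPM (0.40, limma adjusted p = 0.0109). These 2 and Arc were the called genes among the 9 immediate early genes below the filter. The other 6 were not called, with changes between 0.011 and 0.098. In the fit without the filter, 4359 of all 39624 genes were called higher in cKO than in control. Of the 12 immediate early genes 3 passed the filter, and none of these was called in cKO against control, where 0 also had an unadjusted p under 0.05 with limma. The lowest of these levels are far under 1 TPM, and with the depth unknown their precision cannot be given.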
